A study of Arabidopsis thaliana with 8 samples.

Results

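The end levels of transcripts in VND7XVE and in SND1XVE cells after estradiol were compared on 4 of the 8 Affymetrix arrays of the study, the 2 VND7XVE and the 2 SND1XVE arrays from cells given estradiol, over all 22746 probe sets that are not array controls. The arrays were chosen by their titles, and no measured value entered the choice. All RNA came from Arabidopsis protoplasts, which are plant cells freed of their walls. The cells carried either SND1XVE or VND7XVE, fusions that make a transcription factor dependent on estradiol. Every group, controls included, received cycloheximide, an inhibitor of protein synthesis, and the 2 estradiol groups received estradiol in addition. The 4 control arrays, 2 of each line with cycloheximide alone, were used to see which differences between the lines were there without estradiol. The study asked which genes SND1 and VND7 activate directly. Cells with estradiol but without either fusion were not analysed here, and the promoter driving the fusions, the number of lines and the hours of treatment were not stated in the labels.

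SND1 and VND7 are NAC domain transcription factors. SND1 is known as a switch that starts secondary wall formation in fibres, and VND7 as one that turns cells into xylem vessel elements, which lay down a patterned wall and then die and empty themselves. Both walls are built of cellulose, xylan and lignin, and the known target genes of both factors overlap, while genes for cell death and for the breakdown of the cell contents are known from vessels. Neither factor is named by a probe set in the tables used here, so the 2 transgenes were not analysed here.

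Median signals were 108.3 to 109.9 intensity units on the estradiol arrays and 98.95 to 102 on the controls, and each array's trimmed mean lay at the same level. Log2 signals correlated at 0.977 to 0.985 between replicates and at 0.961 to 0.963 between the estradiol arrays of the lines. The labels name no tissue. Of 10 listed mesophyll marker genes 2 were named on the array, RCA and LHCB4.1, and their summed signal was 5434 and 4855 on the SND1XVE estradiol arrays and 7948 and 7906 on the VND7XVE estradiol arrays. The 6 named markers of trichomes, guard cells and roots summed to 103.1 and 106.1 against 83.9 and 167. The ratio of actin probe sets at the 3' and the 5' end of the transcript, which grows as RNA is degraded or incompletely copied, was 3.30 and 3.21 on the SND1XVE estradiol arrays and 4.64 and 3.98 on the VND7XVE estradiol arrays, and 2.80 and 2.87 against 3.72 and 4.16 on the controls. It was higher on every VND7XVE array than on any SND1XVE array, and its part in the differences below was not tested. In whole-culture RNA, fewer cells of a type and less RNA per cell cannot be told apart.

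With estradiol, more probe sets with at least 8-fold differences were higher in VND7XVE than in SND1XVE, although calls of any size were more frequent on the SND1XVE side. Of 14768 probe sets tested, 4517 (30.6%) differed between the lines (limma, adjusted p under the threshold of 0.05), 2087 with the higher level in VND7XVE (14.1%) and 2430 in SND1XVE (16.5%). A difference of at least 8-fold, on signals with 16 added, was reached by 75 probe sets higher in VND7XVE and by 7 higher in SND1XVE. At least 2-fold differences numbered 576 and 494. Leaving out VND7XVE estradiol replicate 1 lowered the counts to 2948 in all, 1339 higher in VND7XVE and 1609 higher in SND1XVE, and without its replicate 2 the count higher in VND7XVE was 1369. Whether replicate arrays stand for separate cultures is not stated, so the p-values rest on a spread among samples that may be technical. Each of the 14768 lay above the 40th percentile of its array on at least 2 of the 8 arrays. Of the 2087 and 2430, 81 and 19 passed that filter only on the 2 arrays where they were high.

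Many of these differences were there without estradiol. Between the controls 4067 probe sets (27.5%) differed, and 2633 were called in the same direction in both comparisons, which is 58.3% of the estradiol-array calls and 64.7% of the control calls. The 2 comparisons share no array, although they share the estimate of spread. When any 1 control array of either line was left out, less of the estradiol-array calls was shared than not. The control count fell under each of these settings, and furthest without a VND7XVE control array. On the VND7XVE side 25 of the 75 probe sets at least 8-fold higher were also called between the controls, as were 47.0% of those at least 2-fold higher and 59.4% of all 2087. On the SND1XVE side it was 4 of the 7 at least 8-fold higher, 68.6% of those at least 2-fold higher and 57.3% of all 2430. Over both directions it was 610 of 1070 at 2-fold or more. Another 1595 probe sets were called with estradiol, were not called between the controls, and did not differ between the 2 comparisons by the test either, so they cannot be placed on either side. The size of the difference itself changed between control and estradiol arrays for 452 probe sets (3.06%), with 291 moving toward VND7XVE (1.97%) and 161 toward SND1XVE (1.09%). This test uses the same estradiol arrays. Its count depended on single arrays, and was 202 without VND7XVE estradiol replicate 1 and 231 without replicate 2.

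**Figure D1:**
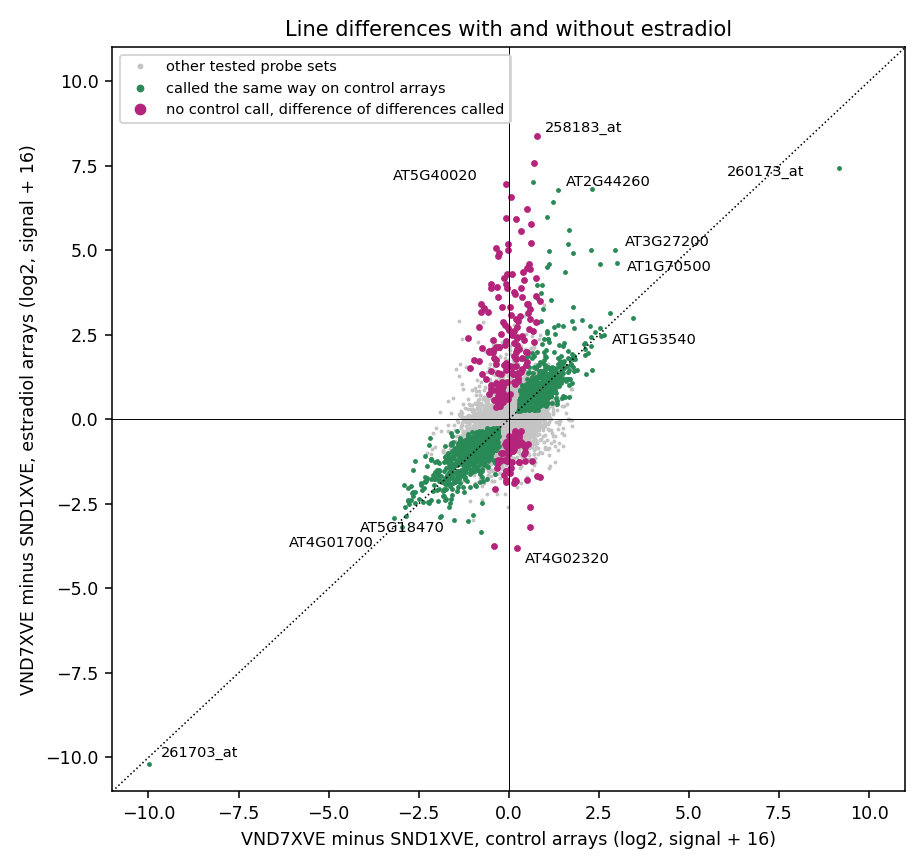
Each point is 1 of the 14768 tested probe sets, with the VND7XVE minus SND1XVE difference on the control arrays on the x axis and on the estradiol arrays on the y axis, both in log2 of signal plus 16, and the dotted line marks equal differences. Points called the same way in both comparisons (2633) lie on the same side of 0 on both axes, and for 100 of them the difference of differences was called. Those called with estradiol, not between the controls, and with a called difference of differences (240, larger points) spread up and down from control differences near 0.

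The highest named difference was that of AT5G40020, a gene of the thaumatin family that usually follows the wall cellulose synthases in expression. Its signals were 2572 and 3094 on the VND7XVE estradiol arrays against 7.6 and 5.9 on the SND1XVE estradiol arrays, with 4.6 and 4.4 and 7.6 and 3.7 on the controls of the 2 lines. Both VND7XVE estradiol arrays stood far above the other 6, which lay at low signal in no order. The difference with estradiol was 6.96 ± 0.31 in log2 units (± SE, with n = 2 arrays per group, 95% interval 6.31 to 7.61, adjusted p = 1.09e-10), and -0.07 between the controls (adjusted p = 0.894). Because the low side is near the pseudocount, the difference was 8.52 with a pseudocount of 1 and 5.35 with 64.

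The same form, high on the VND7XVE estradiol arrays alone, was seen in 7 more of the 14 named genes with the largest differences. AT5G19870 had signals of 1514 and 1532 against 10.7 and 7, and AT1G10800 2171 and 1983 against 23.7 and 13.5. DMP4 (AT4G18425), of a family of membrane proteins and used as a marker of developmental cell death, stood at 2126 and 2454 in VND7XVE and 22.4 and 29.8 in SND1XVE. AT4G08160, of a family of xylanases, which cut xylan, stood at 1793 and 1844 against 37.2 and 40.5. These genes were named only if the lines did not overlap with estradiol, and their control differences lay between -0.34 and 0.62 with no call. The differences were 5.96 ± 0.32, 5.93 ± 0.25, 5.78 ± 0.27 and 5.06 ± 0.46 (adjusted p = 1.11e-09, 6.5e-11, 2.46e-10 and 4.81e-07). AT1G10810, of the aldo-keto reductase family, carries the locus number next to AT1G10800 and had a difference of 4.91 ± 0.37. AT3G52900 and AT3G55720, to which no role is given here, had differences of 5.56 ± 0.37 and 5.21 ± 0.43. In each of these 8 genes the difference with estradiol was larger than the one between the controls by the test of that change (adjusted p = 5.36e-08 to 0.000196), which for AT3G55720 was lost with a pseudocount of 1 (adjusted p = 0.206). All of the 8 but AT4G08160 passed the filter on low signal only on the VND7XVE estradiol arrays. The filter thus chose them by values that the tests also used.

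In the other 6 of the 14 a smaller difference in the same direction was called between the controls. AT2G44260 had signals of 52.6 and 49.2 in VND7XVE controls and 15.6 and 5.5 in SND1XVE controls, and of 2092 and 2086 against 3.4 and 2.6 with estradiol. The MYB-related gene AT3G10590, of a family of DNA-binding proteins, stood at 5011 and 4389 against 50.8 and 66.2 with estradiol, and at 12.5 and 48.7 against 4.1 and 5 without. For both genes the VND7XVE estradiol arrays were the highest, and the control difference lay among low signals. AT1G23460, of the pectin lyase-like family, stood at 276 and 231 against 78.6 and 60.5 in controls, a difference of 1.66 ± 0.16, and at 7957 and 6958 against 122 and 154 with estradiol, a difference of 5.61 ± 0.16 (adjusted p = 8.95e-13). Here the lines were apart at clear signal before estradiol and further apart after it. AT3G27200, of the copper-binding cupredoxin family, had the largest control difference of the 6, 2.95 ± 0.26, with signals of 254 and 232 against 34.5 and 6.2. With estradiol it stood at 6935 and 7409.8 against 226 and 187, a difference of 5.02 ± 0.26, so that the SND1XVE cells with estradiol were near the level of the VND7XVE controls. Its change of difference passed the test (adjusted p = 0.00304) but not with a pseudocount of 1 (adjusted p = 0.497) or without the limma trend (adjusted p = 0.132). AT5G59845, of the gibberellin-regulated family, and AT5G48500 had differences of 5.19 ± 0.25 and 4.96 ± 0.35 with estradiol and of 1.63 ± 0.25 and 1.11 ± 0.35 without.

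**Figure D2:**
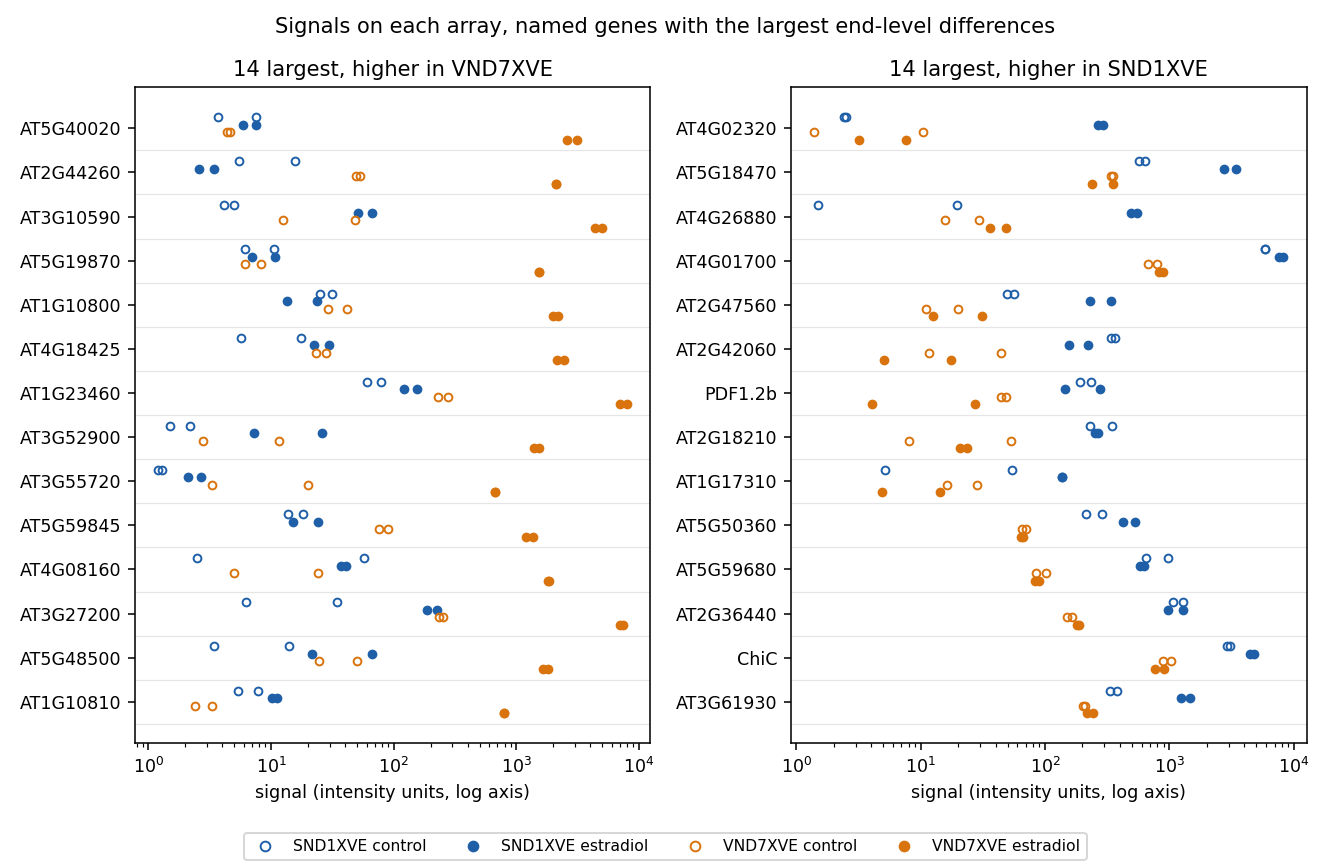
Signals on each of the 8 arrays (log axis, intensity units) for the 14 named genes with the largest end-level differences in each direction, with open circles for control and filled circles for estradiol arrays. In the left panel the filled VND7XVE circles stand alone at the right, from 663.7 for AT3G55720 to 7957 for AT1G23460; in the right panel the open SND1XVE circles often lie beside the filled ones, as for AT4G01700.

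On the SND1XVE side the named differences were smaller, and 11 of the 14 largest were also called between the controls. The chitinase-family gene AT4G01700 had signals of 8208 and 7645 in SND1XVE and 885 and 821 in VND7XVE with estradiol. The controls were 5893 and 5819.5 and 677 and 797. The lines did not overlap under either treatment, which with estradiol the naming rule required. The differences, VND7XVE minus SND1XVE, were -3.19 ± 0.11 with estradiol and -2.97 ± 0.11 without (adjusted p = 4e-12 and 2.9e-11). AT2G42060, of a zinc-binding domain family, AT2G18210, AT2G36440 and the receptor-like kinase gene AT5G59680 had differences of -2.92 ± 0.35, -2.86 ± 0.37, -2.50 ± 0.15 and -2.60 ± 0.19 with estradiol. Between the controls these were -3.17 ± 0.35, -2.86 ± 0.37, -2.77 ± 0.15 and -2.89 ± 0.19. The plant defensin gene PDF1.2b, whose product is antifungal, differed by -2.86 ± 0.35, with signals of 274 and 144 in SND1XVE and 27.5 and 4.1 in VND7XVE, and by -1.87 ± 0.35 between the controls. The chitinase gene ChiC had signals of 4813 and 4445 against 897 and 760.4, a difference of -2.46 ± 0.11, against -1.63 ± 0.11 in controls.

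A smaller set was higher on the SND1XVE estradiol arrays with no call between the controls. The pectin methylesterase gene AT4G02320, whose product removes methyl groups from pectin, stood at 269 and 294 in SND1XVE and 7.7 and 3.2 in VND7XVE with estradiol. The controls were 2.4 and 2.5 in SND1XVE and 10.5 and 1.4 in VND7XVE, so that 6 arrays lay near the bottom of the scale. The difference was -3.80 ± 0.48 (adjusted p = 1.67e-05), and its change from the controls passed the test (adjusted p = 0.002) but not with a pseudocount of 1 (adjusted p = 0.208). AT4G26880, of the stigma-specific STIG1 family of small secreted proteins, stood at 544 and 489.9 against 48.5 and 36.2, a difference of -3.20 ± 0.37 (adjusted p = 6.18e-06). TET3, a tetraspanin of the cell membrane, stood at 1557 and 1479 against 417 and 415, with 178 and 174 and 179.8 and 229.5 in the controls. It was thus raised in both lines and more so in SND1XVE, and the difference was -1.83 ± 0.14 (adjusted p = 7.79e-08) with 0.19 ± 0.14 between the controls. AT5G40510, AT5G55980 and the protein kinase gene AT1G64300 had differences of -1.88 ± 0.20, -1.80 ± 0.27 and -1.79 ± 0.20, with control differences of 0.15, 0.49 and -0.09 that were not called.

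Some genes combined both forms. The lectin-like gene AT5G18470 stood at 3455 and 2725 in SND1XVE against 238 and 352 in VND7XVE with estradiol, and at 637 and 570.3 against 350.1 and 342 without. The SND1XVE estradiol arrays were the highest and no 2 groups of the different lines overlapped. The difference was -3.33 ± 0.16 with estradiol and -0.77 ± 0.16 without (adjusted p = 3.58e-10 and 0.00208), and it changed (adjusted p = 3.71e-06). AT3G61930 likewise went from -0.75 ± 0.14 to -2.46 ± 0.14 (adjusted p of the change = 5.58e-05). The RING finger gene AT2G47560 stood at 229 and 339 in SND1XVE and 12.6 and 31.4 in VND7XVE with estradiol, 8.01 times higher in SND1XVE on signals with 16 added, with a control difference of -1.14 ± 0.36. AT5G50360 differed by -2.60 ± 0.20 with estradiol and -1.66 ± 0.20 without. For neither did the change pass (adjusted p = 0.0598 and 0.0999). The MADS-box gene AT1G17310, of a family of transcription factors, differed by -2.60 ± 0.52 with estradiol and -0.02 ± 0.52 without, again with no call for the change (adjusted p = 0.0762).

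Genes that rose in both lines reached end levels that differed in different measure. Of the 700 probe sets called as rising with estradiol in both lines, 249 ended higher in VND7XVE, 152 ended higher in SND1XVE and 299 were not called, with a median end-level difference of 0.15. Among all tested probe sets 14.1% ended higher in VND7XVE and 16.5% in SND1XVE. The shares that rose were 9.37% in SND1XVE and 8.15% in VND7XVE, and the rises and the end levels share the estradiol arrays. Among the 6 named genes with the highest mean rise, the polygalacturonase gene AT1G70500, whose product cuts pectin, ended at 16084 and 15644 in VND7XVE and 634 and 632 in SND1XVE. The controls were 177 and 128 and 2.9 and 6.9, so that VND7XVE stood higher both before and after. The difference with estradiol was 4.61 ± 0.15 (adjusted p = 4.29e-12) and the one between the controls 3.01 ± 0.15; the change between them passed at a pseudocount of 16 (adjusted p = 0.000292) and not at 1 (adjusted p = 0.927). The class III peroxidase gene AT5G66390 (PRX72), known for a part in lignification, ended at 11904 and 10377 against 1638 and 1564, a difference of 2.78 ± 0.15, with 1.38 ± 0.15 in the controls. AT5G07800, of the flavin monooxygenase family, ended at 2960 and 3072 against 398 and 532, a difference of 2.67 ± 0.33. By contrast AT5G60530 ended at 9550.3 and 9079 against 7975 and 8578, a difference of 0.17 ± 0.13 (95% interval -0.10 to 0.44, adjusted p = 0.347).

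The other 2 of the 6 lay near the threshold. The pectin methylesterase gene AT3G47400 ended at 1799.9 and 1741 in VND7XVE and 842 and 736 in SND1XVE, a difference of 1.15 ± 0.31 (adjusted p = 0.00991). Its call was lost with a pseudocount of 1 (adjusted p = 0.22), without the filter (adjusted p = 0.0592) and without the limma trend (adjusted p = 0.0838). It was also lost without SND1XVE estradiol replicate 2 and without either VND7XVE estradiol array. The polygalacturonase gene AT1G65570 ended at 3319.7 and 3061 against 1776 and 1762. The groups did not overlap, and the difference was 0.84 ± 0.31 (95% interval 0.18 to 1.51, adjusted p = 0.0516). It passed the threshold when any 1 control array was left out (adjusted p = 0.0144 to 0.0252).

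The xylan genes IRX15 and GUT2 ended at levels that the test did not separate, whereas TBL34 ended far higher in VND7XVE. Of 26 listed genes 6 were named and 5 tested, of which 1 was higher in VND7XVE and 2 in SND1XVE, and this and the counts of groups that follow stand beside 14.1% and 16.5% of all tested probe sets. IRX15, which xylan synthesis in the secondary wall needs, ended at 633 and 641 in VND7XVE and 556 and 595 in SND1XVE, from control signals of 6.2 and 6.6 and 6.2 and 4.2. The VND7XVE arrays were higher by less than the test could separate, with a difference of 0.14 ± 0.22 (95% interval -0.33 to 0.62, adjusted p = 0.677). GUT2, the xylan backbone enzyme also called IRX10, ended at 1143 and 1293 against 1060.1 and 1001, a difference of 0.24 ± 0.14 (95% interval -0.07 to 0.54, adjusted p = 0.235). Their relatives were higher in SND1XVE: IRX15-L stood at 238 and 251 against 153 and 154 in VND7XVE, a difference of -0.62 ± 0.15 (adjusted p = 0.00585). GUT1 differed by -0.42 ± 0.14 with estradiol (adjusted p = 0.0353) and -0.43 ± 0.14 without, and its call was lost without either SND1XVE estradiol array (adjusted p = 0.144 and 0.0778) and without either VND7XVE one (adjusted p = 0.0672 and 0.191).

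TBL34 is of a family that puts acetyl groups on xylan. It ended at 789.7 and 851 in VND7XVE and 73.4 and 81.2 in SND1XVE, with 4.2 and 5.8 and 6.2 and 28.9 in the controls. Both estradiol groups lay above their own controls, and the VND7XVE arrays stood far above all others. The difference was 3.16 ± 0.33 (adjusted p = 2.11e-06), against -0.59 ± 0.33 between the controls, and the change passed the test (adjusted p = 0.000104). Among 13 tested probe sets of the trichome birefringence-like family to which it belongs, 3 were higher in VND7XVE and 3 in SND1XVE. TBL32, of the same xylan-acetylating group, differed by 0.72 ± 0.18 and TBL45 by 2.09 ± 0.36, while TBL37 and TBL42 differed by -1.05 ± 0.11 and -2.41 ± 0.52.

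**Figure D3:**
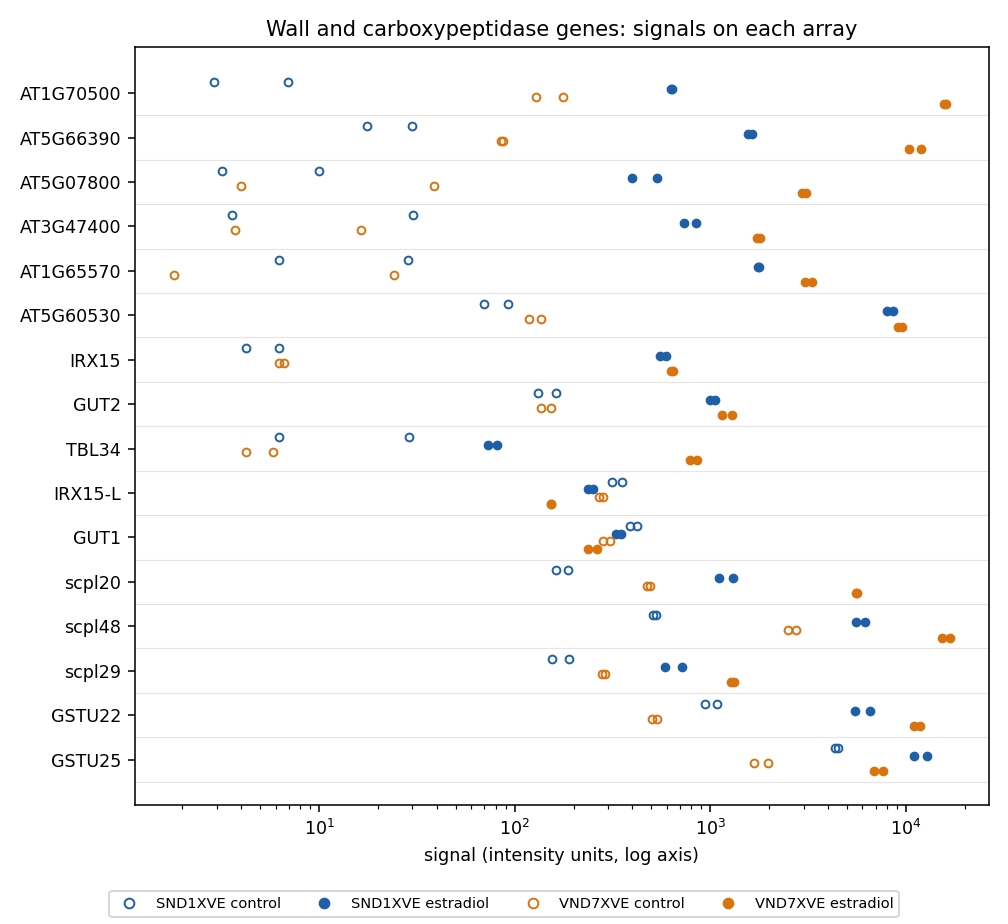
Signals on each of the 8 arrays (log axis, intensity units) for 16 genes, namely those with the highest mean rise in both lines, the xylan genes, 3 carboxypeptidase-like genes and 2 glutathione transferases, with open circles for control and filled circles for estradiol arrays. The filled circles of the lines lie close together for AT5G60530, IRX15 and GUT2 and far apart for AT1G70500, AT5G66390 and TBL34.

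Genes whose expression is known to follow that of the secondary wall cellulose synthases held more members called higher in VND7XVE than in SND1XVE. Of 27 listed genes 21 were named and 11 tested, of which 8 were higher in VND7XVE and 1 in SND1XVE, with a median difference of 1.20 beside -0.05 over all tested probe sets. Between the controls 2 were higher in VND7XVE and 1 in SND1XVE, with a median of -0.01. The filter was passed by 4 of the 11 only on the VND7XVE estradiol arrays, so they had to differ, and without the filter 7 of all 21 were higher in VND7XVE and 1 in SND1XVE, with a median of 0.47. Besides AT5G40020, AT4G08160 and TBL34, the cupredoxin gene AT5G26330 stood at 259 and 231 against 24.2 and 22.4 and AT1G63520 at 165 and 177 against 23.5 and 36.9. These differences were 2.73 ± 0.42 and 2.03 ± 0.42 (adjusted p = 0.000132 and 0.00157). AT5G60720 ended at 1909 and 1778 against 907 and 869 and was raised in both lines, with a difference of 1.04 ± 0.21. The lipase-family gene AT1G54790 differed by 0.85 ± 0.31 with estradiol and 0.88 ± 0.31 without. The member higher in SND1XVE was AT1G08340, which encodes an activator of the GTPase activity of ROP proteins, regulators of cell shape and wall patterning. It stood at 247 and 376 in SND1XVE and 148 and 116 in VND7XVE, a difference of -1.12 ± 0.28 (adjusted p = 0.0056), and -0.84 ± 0.28 without estradiol. That call was lost without SND1XVE estradiol replicate 2 (adjusted p = 0.114) and without VND7XVE estradiol replicate 2 (adjusted p = 0.0715).

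Genes tied to the death and clearing of vessel cells went in more than 1 direction. Of 18 listed genes 10 were named and tested, of which 5 were higher in VND7XVE and 1 in SND1XVE, with a median of 0.72, beside 14.1% and 16.5% of all tested probe sets. The filter was passed by 2 of the 10 only on the VND7XVE estradiol arrays. Between the controls it was 3 and 1, with a median of 0.35. DMP4 and AT2G14095 (EXI1), both used as markers of developmental cell death, were high in VND7XVE with estradiol alone. AT2G14095 had signals of 279 and 273 against 6.2 and 22.7, with 5.4 and 4 and 3.7 and 12.2 in the controls, and a difference of 3.32 ± 0.45 (adjusted p = 3.98e-05). The aspartic protease gene AT4G04460, another such marker, ended at 232 and 228 against 167 and 158, a difference of 0.46 ± 0.30 with no call (adjusted p = 0.271). Of the vacuolar processing enzymes, proteases that mature vacuolar proteins, BETA-VPE was higher in SND1XVE, with a difference of -0.92 ± 0.19 against -0.87 ± 0.19 in the controls, and GAMMA-VPE had a value of -0.18 ± 0.09 (adjusted p = 0.159).

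Of the serine carboxypeptidase-like genes, whose products trim proteins or transfer acyl groups, scpl48, scpl20 and scpl29 were higher in VND7XVE both with estradiol and in the controls. They were 3 of 10 tested of 29 named probe sets, beside 14.1% of all tested probe sets higher in VND7XVE with estradiol and 13.7% in the controls. The other 7 were not called in either comparison, and these 3 also belong to the vessel list. scpl48 stood at 2503 and 2742 in VND7XVE controls and 509 and 531 in SND1XVE controls, and at 16875 and 15302 against 5548 and 6217 with estradiol. All 4 groups were apart, and the lines came closer with estradiol, from a difference of 2.30 ± 0.10 to 1.45 ± 0.10 (adjusted p of the change = 0.00221). scpl20 went the other way, from 1.39 ± 0.12 to 2.20 ± 0.12, with end signals of 5589 and 5618 against 1308 and 1108. Its change had an adjusted p of 0.0118 and was lost when SND1XVE estradiol replicate 2, VND7XVE control replicate 1 or either VND7XVE estradiol array was left out (adjusted p = 0.0585 to 0.0786). Without the limma trend the changes of scpl48 and scpl20 were both lost (adjusted p = 0.0798 and 0.112). scpl29 differed by 0.98 ± 0.14 with estradiol and 0.68 ± 0.14 without.

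Peroxidase and lignin genes were split, and the split was there in the controls. Of 4 tested class III peroxidase probe sets, which were all called, PRX72 was higher in VND7XVE and 3 were higher in SND1XVE. PRX52, known for a part in fibre lignin, stood at 13462 and 14086 in SND1XVE and 3902 and 3658 in VND7XVE, with 18851 and 17316 and 5262 and 4773 in the controls. The lines did not overlap in either treatment, and the difference was -1.86 ± 0.10 with estradiol and -1.85 ± 0.10 without. AT5G64120 (PRX71) differed by -1.59 ± 0.11 and Prx37 by -1.38 ± 0.14, against -1.60 ± 0.11 and -2.26 ± 0.14 in the controls. AT5G51890 (PRX66), known from xylem vessels, was counted with the lignin list. It stood at 654 and 899 in VND7XVE and 35.4 and 33 in SND1XVE, a difference of 3.96 ± 0.26 (adjusted p = 1.16e-08), with 0.77 ± 0.26 between the controls. HCT, an enzyme that makes lignin precursors, differed by 0.12 ± 0.10 (adjusted p = 0.369). CYP84A4, a relative of ferulate 5-hydroxylase for which no part in making lignin is claimed here, differed by -1.59 ± 0.17 with estradiol and -1.51 ± 0.17 without. Over 7 named lignin genes 6 were tested, with 2 higher in VND7XVE and 3 in SND1XVE.

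Other enzyme families held single genes with large differences. CYP71B21, a cytochrome P450, stood at 1891 and 1908 in VND7XVE and 81.6 and 96.7 in SND1XVE, with 62 and 61.5 and 71.9 and 67.7 in the controls, so that only the VND7XVE estradiol arrays were high. Its difference was 4.19 ± 0.17 (adjusted p = 6.23e-11), while of 9 tested P450 probe sets 4 were higher in VND7XVE and 2 in SND1XVE. GSTU22, a glutathione transferase that detoxifies reactive compounds, crossed over. It stood at 1087 and 934 in SND1XVE controls and 537 and 502 in VND7XVE controls, but at 6531 and 5519.5 in SND1XVE and 11869.8 and 11074 in VND7XVE with estradiol. The differences of -0.94 ± 0.11 and 0.93 ± 0.11 were called in opposite directions (adjusted p = 1.32e-05 and 1.1e-05). GSTU25 remained higher in SND1XVE, with differences of -1.27 ± 0.11 without and -0.71 ± 0.11 with estradiol. Of 32 tested UDP-glycosyltransferase probe sets, 9 were higher in VND7XVE and 4 in SND1XVE with estradiol, and 13 and 4 between the controls. Over all tested probe sets the shares were 14.1% and 16.5% with estradiol and 13.7% and 13.8% between the controls.

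Calls in opposite directions on control and estradiol arrays were made for 49 probe sets. In 29 of them the level was higher in SND1XVE controls and then higher in VND7XVE with estradiol, and in 20 the reverse. The remorin-family gene AT1G13920, of membrane-associated plant proteins, stood at 36.2 and 33.9 in SND1XVE controls and 2.7 and 4.5 in VND7XVE controls, but at 14.7 and 12.2 and 210.1 and 203 with estradiol. The control values are all low, and the differences were -1.38 ± 0.39 and 2.92 ± 0.39. This gene and AT4G08250, given below, passed the filter only on the VND7XVE estradiol arrays, so the filter chose them by those values. The control signals of both all lay under the filter's percentile. AT1G13470 went from -0.71 ± 0.21 to 2.88 ± 0.21, with end signals of 1567 and 1854 in VND7XVE and 204 and 232 in SND1XVE. AT1G68780 and the GRAS-family transcription factor gene AT4G08250 differed by 1.63 ± 0.46 and 1.56 ± 0.41 with estradiol (adjusted p = 0.0135 and 0.0092). With a pseudocount of 1 both calls were lost (adjusted p = 0.0527 and 0.0774), and that of AT1G68780 also without SND1XVE estradiol replicate 1 (adjusted p = 0.0615) or either VND7XVE estradiol array (adjusted p = 0.0941 and 0.1).

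Some groups were apart between the lines both with and without estradiol. Of 67 tested plastid-encoded probe sets 49 were higher in VND7XVE and 0 in SND1XVE (limma; 14.1% of all probe sets were higher in VND7XVE), with a median of 0.64. Between the controls it was 52 and 0 (limma; 13.7% of all), with a median of 0.65, and 45 were called in both. At an unadjusted p under 0.05 the counts were 54 and 0 with estradiol and 57 and 0 without. psbA, of the photosystem II reaction centre, stood at 14056 and 13685 in VND7XVE and 5097 and 6409 in SND1XVE with estradiol, a difference of 1.28 ± 0.13, and psbB at 2082 and 1912 against 595 and 379, a difference of 2.03 ± 0.29. psbM, a small subunit of the same complex, differed by 1.00 ± 0.12 between the controls and -0.13 ± 0.12 with estradiol (adjusted p of the change = 0.000979). Of the nuclear mesophyll genes, LHCB4.1, a light-harvesting protein, was also higher in VND7XVE at 0.95 ± 0.10, and RCA, which activates Rubisco, had 0.13 ± 0.10 (adjusted p = 0.356). The summed mesophyll signal and the actin ratio given above moved the same way, while the GAPDH ratio did not separate the lines. The part of these was not tested.

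Of 13 listed heat shock genes 3 were named and tested. All 3 were higher in VND7XVE with estradiol and in the controls, beside 14.1% and 13.7% of all tested probe sets. The small heat shock protein gene AT1G53540 stood at 7544 and 6624 against 1242 and 1293 with estradiol and at 7847 and 7488 against 1213 and 1384 without, differences of 2.46 ± 0.10 and 2.55 ± 0.10. The co-chaperone gene AT5G48570 differed by 2.57 ± 0.15 and 2.38 ± 0.15, and the small heat shock protein gene AT2G29500 by 1.81 ± 0.11 and 1.80 ± 0.11. Of 7 tested WRKY genes, which encode regulators of stress responses, 0 were higher in VND7XVE and 3 in SND1XVE by limma, and the same 0 and 3 at an unadjusted p under 0.05, beside 14.1% and 16.5% of all tested probe sets. Between the controls it was 1 and 3. WRKY53, a regulator of senescence and defence, stood at 506 and 541 in SND1XVE and 156 and 118 in VND7XVE, a difference of -1.83 ± 0.18 with estradiol and -1.94 ± 0.18 without. WRKY47 differed by -0.86 ± 0.12, and WRKY42 by -0.94 ± 0.27 (adjusted p = 0.0161), a call lost without either SND1XVE estradiol array (adjusted p = 0.086 and 0.07) and without VND7XVE estradiol replicate 2 (adjusted p = 0.117). The defence list went both ways, with 1 of 4 tested genes higher in VND7XVE and 2 in SND1XVE, one of them WRKY53. The chitinase gene CHI differed by -0.95 ± 0.10, against -1.31 ± 0.10 in the controls, while AT1G72920, of the TIR domain family of immune proteins, was higher in VND7XVE by 0.75 ± 0.22 (adjusted p = 0.0176). Its call was lost without SND1XVE estradiol replicate 1 (adjusted p = 0.0972), without either VND7XVE estradiol array (adjusted p = 0.0577 and 0.1) and without the filter (adjusted p = 0.0591). AT1G72900 was not called. Of 3 tested auxin genes 2 were higher in SND1XVE and WES1 was not called (adjusted p = 0.825). GH3.3 and UGT84B1, whose products conjugate auxin, differed by -0.70 ± 0.15 and -1.93 ± 0.37, and by -1.40 ± 0.15 and -2.89 ± 0.37 without estradiol.

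**Figure D4:**
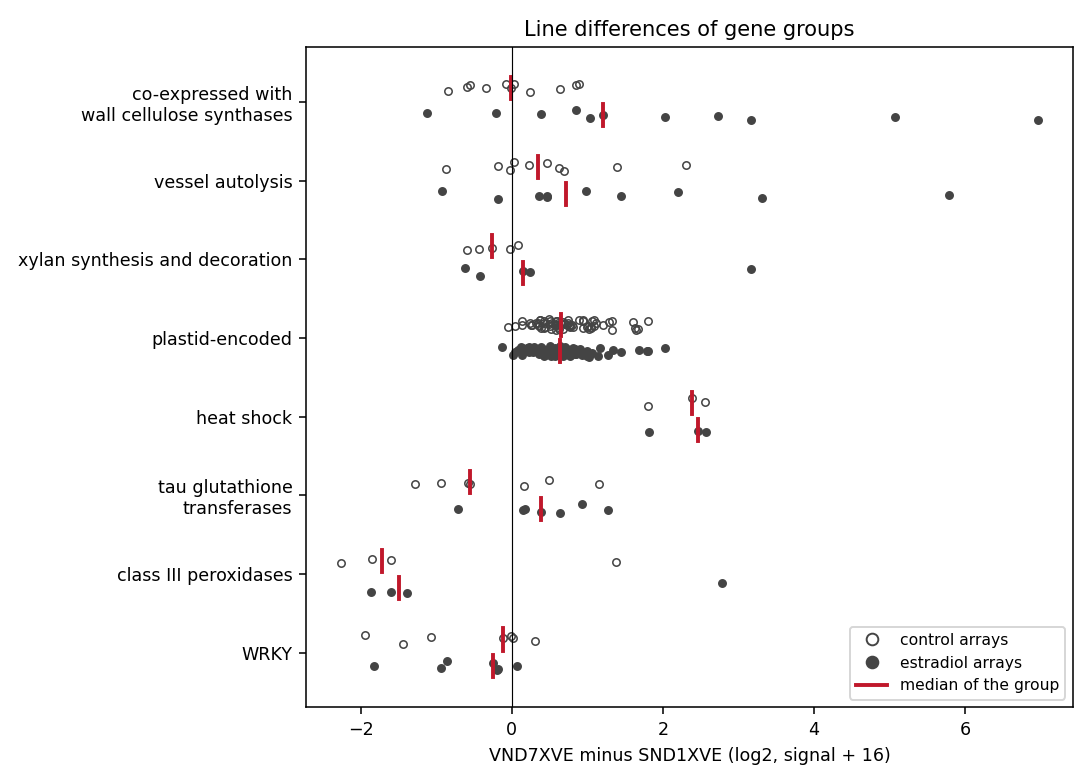
Difference between the lines, VND7XVE minus SND1XVE in log2 of signal plus 16, for each tested probe set of 8 gene groups, with open circles for the control arrays, filled circles for the estradiol arrays and a red bar at the median of each group. The plastid-encoded group sits at medians of 0.65 and 0.64 and the heat shock group at 2.38 and 2.46, while the group co-expressed with wall cellulose synthases has medians of -0.01 and 1.20, with 4 of its 11 members tested only because of their signal on the VND7XVE estradiol arrays.

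Microtubule-associated genes of the IQD family, which bind calmodulin, were called in both directions. IQD22 was higher in VND7XVE by 1.24 ± 0.16. IQD26 was higher in SND1XVE, with signals of 178 and 204 against 31.2 and 41.4 and a difference of -1.99 ± 0.33 (adjusted p = 0.000227), and -1.07 ± 0.33 in the controls. Of 13 tested tubulin and microtubule-associated probe sets, 2 were higher in each line. Of 6 reference genes, used elsewhere for steady levels, 1 was called in each direction. AT2G28390 differed by 0.45 ± 0.16 (adjusted p = 0.0473) and PEX4 by -0.36 ± 0.10 (adjusted p = 0.0161), and both calls were lost without SND1XVE estradiol replicate 1 (adjusted p = 0.404 and 0.0709) and without VND7XVE estradiol replicate 1 (adjusted p = 0.151 and 0.0833) or replicate 2 (adjusted p = 0.162 and 0.06). That of AT2G28390 was also lost without either VND7XVE control array (adjusted p = 0.0554 and 0.0564).

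The largest difference in each direction was in a probe set with no gene in the table used here. Probe set 261703_at stood at 21355 and 25389 on the SND1XVE estradiol arrays and 1.2 and 6.9 on the VND7XVE estradiol arrays, and at 25130.4 and 26356 against 2.8 and 18.5 on the controls. It was thus high in every SND1XVE sample and at the bottom of the scale in every VND7XVE sample, with differences of -10.20 ± 0.21 and -9.98 ± 0.21. Probe set 260173_at, chosen after its values were seen, showed the mirror image. It stood at 23788 and 19852 on the VND7XVE and 105 and 114 on the SND1XVE estradiol arrays, with 23963 and 22105 and 11.7 and 41.6 on the controls, differences of 7.44 ± 0.22 and 9.17 ± 0.22. Probe set 258183_at was high on the VND7XVE estradiol arrays alone, at 9739 and 10004 against 20.6 and 8.3, a difference of 8.37 ± 0.32 (adjusted p = 1.89e-11). Probe set 252596_at was high on the SND1XVE estradiol arrays, at 1025 and 973 against 63 and 55.7, a difference of -3.75 ± 0.37 (adjusted p = 1.15e-06).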

How the data were processed

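Biotin-labelled total RNA of 4 groups of Arabidopsis protoplasts, 2 arrays each, was hybridised to Affymetrix arrays, per the labels' protocols. The deposited values are linear signal intensities, with 1 value for each probe set on an array. They were made with GCOS according to the submitters' processing notes, which were read without a version or settings. Trimmed means were equal on all arrays, so the values were used as deposited. Groups and replicate numbers came from the titles, and 0 sample columns were left unused.

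Of 22746 probe sets, 13513 name 1 gene in the platform annotation, 503 several and 8730 are not listed; 13436 of the 13513 matched the NCBI reference genes of assembly TAIR10.1, used for names only. A probe set was tested if 2 or more of the 8 arrays gave it a signal over their 40th percentile. log2(signal + 16) values, which understate changes of low signals, were fitted with limma 3.58.1 in R 4.3.3 with 4 group means, an intensity trend and 4 residual degrees of freedom. Tests were two-sided, with p-values adjusted over 14768 probe sets by Benjamini and Hochberg's method and a threshold of 0.05. Contrasts were VND7XVE minus SND1XVE with estradiol, the same between controls, and the difference of both. The steps were tested on simulated data. Tables and figures used Python 3.11.15, pandas 2.3.3 and matplotlib 3.10.9. Precision is limited by the few arrays.

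The comparison and the gene lists were chosen with earlier results of these data known. Genes were named by a rule: the 14 largest called differences in each direction without overlap between groups, the 6 largest of these also called, and not called, between controls, 4 called in opposite directions, the 6 with the highest mean rise in both lines, up to 5 per list, and 2 unnamed probe sets per direction. psbA, psbM, TBL32, HCT, BETA-VPE, GAMMA-VPE, AT4G04460, AT5G60720 and AT1G54790 were named after their values were seen. Alternatives were pseudocounts of 1 and 64, quantile normalization, median centring, no filter or one at the 60th percentile, limma without trend or robust, a replicate block, only the arrays compared, and leaving out each array. Sequences were not used here.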

Additional observations from a re-analysis of the deposited data

Results flagged for a closer look

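Each result below was picked out because the difference between the lines was not the same on the estradiol arrays as on the control arrays, by limma's test of that change itself (adjusted p under 0.05). Values are the VND7XVE minus SND1XVE difference with estradiol minus the one without, on the log2 scale, with 2 arrays per group, and no explanation for them was tested. Some of the genes passed the filter only on the 2 estradiol arrays where they were high, so the filter chose them by values used here.

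The change was toward VND7XVE and over 5 for AT5G40020 (7.04 ± 0.43), AT5G19870 (6.03 ± 0.45), AT1G10800 (5.72), AT2G44260 (5.43), AT4G08160 (5.41), AT3G52900 (5.21), AT1G10810 (5.18) and DMP4 (AT4G18425, 5.15), and for 2 unnamed probe sets, 258183_at (7.59) and another at 6.89. It lay between 3 and 5 for AT3G10590 (4.93), AT3G55720 (4.60), CYP71B21 (4.33), AT1G13920 (4.30), AT1G23460 (3.95), AT5G48500 (3.86), TBL34 (3.75), AT1G13470 (3.59), AT5G59845 (3.56), AT2G14095 (3.50) and AT5G51890 (3.19). It was below 3 for AT1G68780 (2.99), AT4G08250 (2.73), AT1G63520 (2.58), AT5G26330 (2.49), AT5G07800 (2.10), AT3G27200 (2.07), GSTU22 (1.87), AT1G70500 (1.61), AT5G66390 (1.40), AT1G72920 (1.29), Prx37 (0.88) and scpl20 (0.82).

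The change was toward SND1XVE for AT4G02320 (-4.02 ± 0.67), AT4G26880 (-3.80 ± 0.52), AT5G18470 (-2.56), AT5G55980 (-2.30), AT5G40510 (-2.02), TET3 (-2.02), AT3G61930 (-1.71), AT1G64300 (-1.70), scpl48 (-0.85) and ChiC (-0.83), and for the unnamed probe sets 252596_at (-3.34) and 260173_at (-1.73).

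Some of these tests depended on 1 array. That of AT1G72920, of the TIR domain family of immune proteins, was lost when any array other than SND1XVE estradiol replicate 2 was left out. That of AT5G26330 was lost without either VND7XVE control array or either SND1XVE estradiol array, and without SND1XVE control replicate 2 (adjusted p = 0.0705 to 0.0916). That of AT5G07800 was lost without SND1XVE control replicate 1, SND1XVE estradiol replicate 1 or either VND7XVE estradiol array (adjusted p = 0.0714 to 0.126). That of Prx37 was lost without either VND7XVE estradiol array, SND1XVE control replicate 1, SND1XVE estradiol replicate 1 or VND7XVE control replicate 2 (adjusted p = 0.054 to 0.0872). That of AT1G63520 was lost without SND1XVE control replicate 2, SND1XVE estradiol replicate 1 or VND7XVE control replicate 1 (adjusted p = 0.0629 to 0.0973). That of AT1G68780 was lost without SND1XVE estradiol replicate 1 or either VND7XVE estradiol array (adjusted p = 0.0553 to 0.126), that of AT4G08250 without SND1XVE estradiol replicate 1 (adjusted p = 0.0547), and that of ChiC without VND7XVE control replicate 2 or VND7XVE estradiol replicate 2 (adjusted p = 0.0636 and 0.0584).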

How the results depend on the processing

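The 4517 probe sets called with estradiol, their split by direction, the 4067 called between the controls and the 2633 called the same way in both kept within 1.5 times of these counts under every alternative other than leaving out an array. The count for the difference of differences, 452, was 291 without the filter on low signal and 226 without the limma trend. Leaving out each array in turn gave 2948 to 4801 calls with estradiol, 1339 to 2223 higher in VND7XVE and 1609 to 2578 in SND1XVE, 2570 to 4100 between the controls, 1826 to 2264 shared, and 202 to 446 for the difference of differences; the cause was not tested. The replicate block gave 4520, 4075, 441 and 2653, and same-numbered arrays of different groups did not deviate together (correlations of -0.03 to 0.02). The correlations show no shared effect of the replicate number, but cannot tell whether same-numbered samples were handled together. Over the named genes 2266 values kept their direction and side of the threshold, 58 lost and 15 gained a call, and 5 uncalled values changed sign: AT4G26410 (-0.16 to 0.37 over the arrays left out) and WES1 (-0.19 to 0.33) without SND1XVE estradiol replicate 1, FMA (-0.32 to 0.21) without SND1XVE estradiol replicate 2 (0.15) or VND7XVE estradiol replicate 1, and RRP41 (-0.18 to 0.062) without VND7XVE estradiol replicate 2. With a pseudocount of 1 the changes of AT4G02320, AT3G55720, AT5G66390, AT2G14095, AT5G48500 and 252596_at from controls to estradiol lost their calls (adjusted p = 0.208, 0.206, 0.107, 0.134, 0.0586 and 0.176). The changes of AT5G07800, AT5G26330, AT1G63520, AT1G68780 and AT4G08250 lost theirs too (adjusted p = 0.521, 0.36, 0.105, 0.063 and 0.0607). Those of AT3G27200 and AT1G70500 did as well (adjusted p = 0.497 and 0.927). For 260173_at the call for the change was lost without the filter, without the limma trend and with robust estimation (adjusted p = 0.0549, 0.163 and 0.0592). That of AT5G07800 was lost under the same settings (adjusted p = 0.143, 0.221 and 0.0612). Those of AT1G63520 and AT5G26330 were lost without the filter (adjusted p = 0.0812 and 0.108) and without the trend (adjusted p = 0.0713 and 0.0976). That of AT1G72920 was lost without the filter (adjusted p = 0.14), and those of ChiC and Prx37 without the trend (adjusted p = 0.127 and 0.0879). Signals near the bottom of the scale have no order here, since detection calls were not used.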
